A study of Arabidopsis thaliana with 12 samples.

Results

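The genes described here are those whose response to heat differed between seedlings of the *cry1* mutant and wild type (WT) of *Arabidopsis thaliana*. The question this contrast addresses is which parts of the heat response depend on CRY1, a blue-light receptor. For each gene, the log2 difference between 44°C and 22°C in WT was subtracted from the same difference in *cry1*, so a positive value means a higher response in *cry1*, through a larger rise, a smaller fall, or a rise where WT fell. A gene was called when this difference was at least 2-fold (1 on the log2 scale) at an adjusted p under 0.05 (edgeR, all 12 libraries). Of 26891 genes in the table, 18932 averaged at least 1 CPM (counts relative to library size) and were tested, and 1022 were called, or 5.40% of those tested. The response was higher in *cry1* for 620 genes (3.27%) and lower for 402 (2.12%). The genes nearest the 2-fold limit were *SHL1* (1.0006) and *dNK* (-1.0001) just inside it and *IPT3* (-0.9978) just outside.

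There were 4 groups of 3 libraries: *cry1* after 2 h at 44°C, *cry1* kept at 22°C, WT after 2 h at 44°C, and WT kept at 22°C. All were whole seedlings of the Columbia ecotype, 8 days old by the labels, moved from continuous light into blue light for 1 day before the temperature treatment, so that every group carried the blue-light treatment. The study's methods give fewer days of white light than this age implies, so the age is uncertain. The labels give the genotype only as *cry1* mutant, and the study's methods list *cry1-304* as its line. The study's methods call the 3 replicates of a group independent biological ones. In whole seedlings, fewer cells of a type and less RNA per cell cannot be told apart.

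CRY1 is a flavoprotein that is activated by blue light. In its active state it restrains the COP1/SPA ubiquitin ligase, so that HY5 and other transcription factors of photomorphogenesis accumulate, and pigment, photosynthesis and photoprotection genes are switched on as a seedling greens. Heat calls up another programme, in which heat shock factors switch on chaperones while genes of growth and photosynthesis are turned down. The contrast used here finds genes whose log2 response to heat differed between the genotypes. Whether both programmes act on these genes was not tested.

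The mutated gene itself was read first. *CRY1* (AT4G08920, chromosome 4, 5723651 to 5727268 in TAIR10.1) had 0, 0 and 0 counts in the *cry1* libraries at 44°C, which allows up to 3 counts per library, and 5, 2 and 5 counts at 22°C. In WT it had 1837, 1810 and 1774 counts at 44°C and 2805, 2867 and 2677 counts at 22°C. The levels of the gene match the labels of all 12 libraries. *CRY1* is among the 402 genes called lower, but with at most 5 counts in any *cry1* library its heat response in the mutant cannot be read, and it is left out of what follows. Other genes were also missing from *cry1*. *ARGAH1* (AT4G08900), an arginase gene close to *CRY1*, had 0 to 1 counts per *cry1* library, against 159 to 356 in WT. A stretch of chromosome 1 from AT1G75260 to AT1G75300 was at 0 to 1 counts in *cry1*, and *DHAR2* within it, which encodes a dehydroascorbate reductase of the ascorbate cycle, had 0 counts in every *cry1* library, against 304 to 435 in WT. In all, 8 genes, *ARGAH1* and *DHAR2* among them, averaged at least 30 counts per WT library at 22°C and had at most 6 counts over the 6 *cry1* libraries. None of these 8 was called, but with so few counts their heat response in *cry1* cannot be read. The part of these missing transcripts in the differences below was not tested.

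Depth and composition differed between the groups. Totals were 15228953 to 16150217 counts in *cry1* at 44°C, 18616049 to 21752824 in *cry1* at 22°C, 10539271 to 11967963 in WT at 44°C and 12395997 to 14295796 in WT at 22°C. The 50 most abundant genes took 31.7 to 33.2% of the counts in *cry1* at 44°C, 14.9 to 15.3% in *cry1* at 22°C, 29.8 to 32.2% in WT at 44°C and 19.9 to 20.1% in WT at 22°C. The libraries were therefore scaled by TMM (trimmed mean of M-values), which sets the bulk of genes equal between libraries, and all CPM below are on that scale. The median difference over all tested genes was then 0.03. With library totals as the scale it was -0.32, and the calls divided into 284 higher (17.8% of calls) and 1314 lower, against 60.7% higher with TMM, while median-ratio scaling gave 635 higher and 387 lower. The split between higher and lower thus rests on the scaling, and directions below are relative to the bulk of genes. Of the 620 genes called higher, 530 passed in the same direction under all 3 scalings, as did 399 of the 402 called lower.

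**Figure D1:**
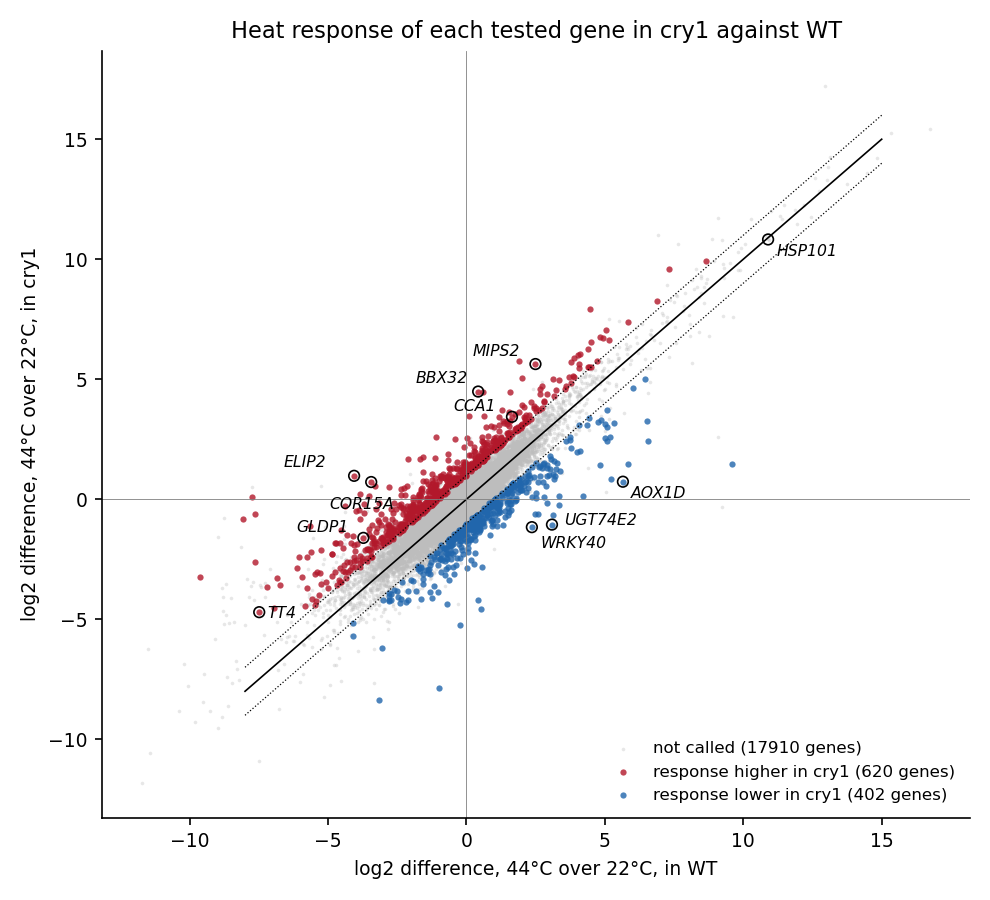
Response to 44°C in *cry1* (y axis) against WT (x axis), as log2 differences, for the 18932 tested genes. Red points are the 620 genes with a higher response in *cry1*, blue points the 402 with a lower response, and grey points all others. The solid line marks equal responses and the dotted lines a 2-fold difference. *HSP101* lies on the line of equal responses, *MIPS2* and *BBX32* above it and *AOX1D* below it.

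A response that passed in one genotype and not in the other was seen for some of the called genes, and others responded in both. Among the 620 genes with a higher response in *cry1*, 206 fell in both genotypes and fell less in *cry1*, and 173 rose in both and rose more in *cry1*. A further 97 fell in WT without passing the test in *cry1*, 71 rose in *cry1* without passing in WT, and 73 rose in *cry1* and fell in WT. Among the 402 with a lower response, 118 fell in *cry1* without passing in WT, 83 rose in WT without passing in *cry1*, 79 fell in both, 75 rose in both, and 47, *CRY1* among them, fell in *cry1* and rose in WT. Each test here is edgeR's at an adjusted p under 0.05. The classes use the libraries that chose the genes, were read with TMM only, and are a description. TMM factors were 0.668 to 0.690 in *cry1* at 44°C and 1.51 to 1.54 at 22°C, against 0.726 to 0.773 and 1.29 to 1.31 in WT. Responses on library totals would therefore be lower in both genotypes, and small rises here could be falls on that scale. Heat passed the same test upward for 37.4% and downward for 40.5% of all tested genes in *cry1*, and for 37.1% and 39.2% in WT.

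**Figure D2:**
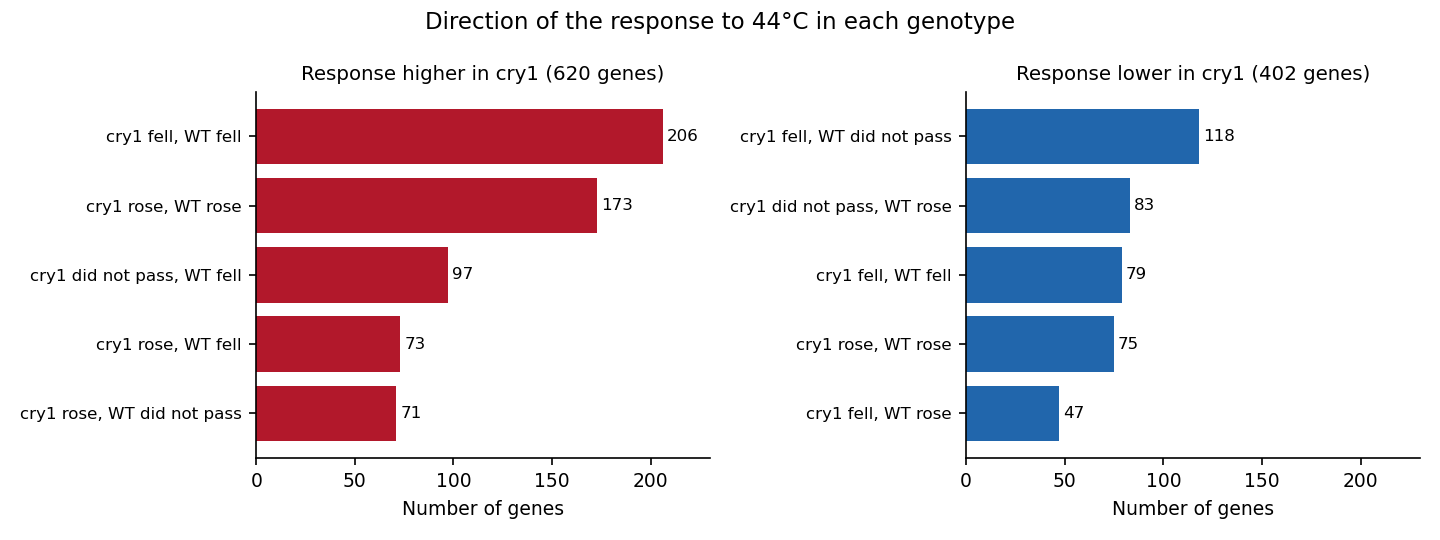
Number of called genes (x axis) by the direction of their response to 44°C in each genotype, for the 620 genes with a higher response in *cry1* (left, red) and the 402 with a lower response (right, blue). Bars marked did not pass hold genes with an adjusted p of 0.05 or more in that genotype. The longest bar on the left is the 206 genes that fell in both genotypes.

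Where the genotypes parted differed between the 2 directions. Of the 620 higher genes, 389 were lower in *cry1* than in WT at 22°C and 424 were higher in *cry1* at 44°C, with 206 doing both. For 175 the genotypes differed at 22°C and did not pass at 44°C, so that heat brought together levels that had been apart. Of the 402 lower genes, 318 were lower in *cry1* at 44°C, and for 224 of them the genotypes did not pass the test at 22°C. Only 80 were higher in *cry1* at 22°C and lower at 44°C. Over all tested genes, 14.5% were lower and 9.08% higher in *cry1* at 22°C, and 12.7% lower and 15.6% higher at 44°C. The lower genes thus mostly differed in the heat. Many of the higher genes already differed before it, while 196 were higher in *cry1* at 44°C without passing at 22°C. These classes use the libraries that chose the genes, were read with TMM only, and are a description.

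**Figure D3:**
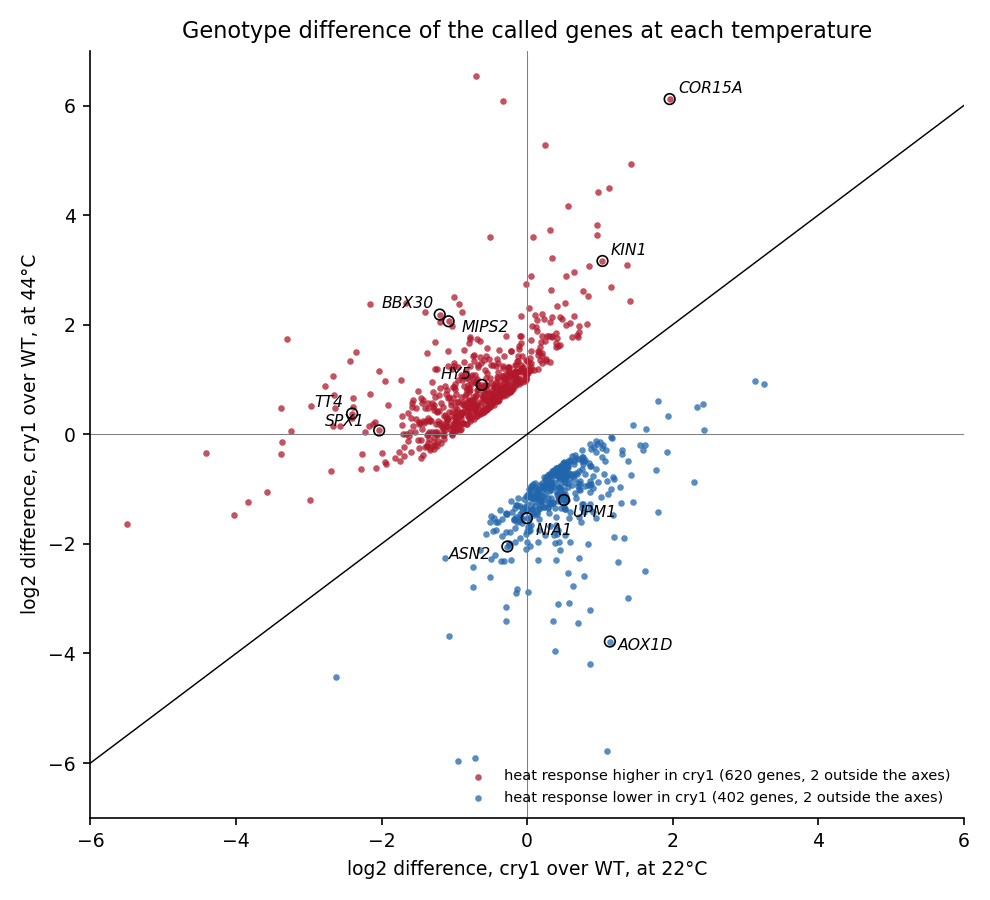
Difference between *cry1* and WT at 44°C (y axis) against that at 22°C (x axis), as log2 values, for the called genes. Red points had a higher and blue points a lower heat response in *cry1*, 2 genes of each colour lie outside the axes, and the line marks equal differences at both temperatures. *BBX30* and *MIPS2* lie below WT at 22°C and above it at 44°C, *TT4* and *SPX1* differ at 22°C, and *NIA1* and *ASN2* differ at 44°C.

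Large higher responses included those of several genes of light and cold biology. *COR15A* (AT2G42540), which encodes a chloroplast protein that protects membranes during freezing, had 574, 999 and 653 CPM in *cry1* at 44°C and 394, 518 and 443 CPM at 22°C, against 7.62, 17.9 and 6.05 CPM in WT at 44°C and 81.4, 143 and 124 CPM at 22°C. It fell by 3.44 on the log2 scale in WT, and its response in *cry1* was 0.72 and did not pass. The 4 groups did not overlap. The difference of responses was 4.16 (SE 0.54, adjusted p = 0.000924). *MIPS2* (AT2G22240), a myo-inositol phosphate synthase at the entry to inositol and galactinol synthesis, had 983, 1223 and 968 CPM in *cry1* at 44°C and 20.2, 21.3 and 22.5 CPM at 22°C, against 214, 288 and 257 CPM in WT at 44°C and 43.6, 43.9 and 47.6 CPM at 22°C. It rose in both genotypes, and *cry1* lay below WT at 22°C and above it at 44°C (difference 3.14, SE 0.15, adjusted p = 1.76e-09). *BBX30* (AT4G15248), a small B-box protein, had 73.1, 82.6 and 66.1 CPM in *cry1* at 44°C and 7.3, 6.25 and 6.15 CPM at 22°C, against 16.7, 20.8 and 10.9 CPM in WT at 44°C and 16, 15.7 and 13.7 CPM at 22°C. It rose by 3.49 in *cry1* and did not pass in WT, where the value was 0.10 (difference 3.39, SE 0.23, adjusted p = 1.93e-07).

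Among the large lower responses was that of *AOX1D* (AT1G32350), which encodes an alternative oxidase, a bypass of the mitochondrial electron transport chain. It had 0.718, 1.67 and 0.483 CPM in *cry1* at 44°C and 0.699, 0.351 and 0.642 CPM at 22°C, against 14, 11.8 and 13.6 CPM in WT at 44°C and 0.436, 0.215 and 0.121 CPM at 22°C. The 3 heated WT libraries stood above all 9 others. Heat raised it by 5.65 on the log2 scale in WT, and in *cry1* the value was 0.73 and did not pass (difference -4.92, SE 0.60, adjusted p = 1.86e-05).

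**Figure D4:**
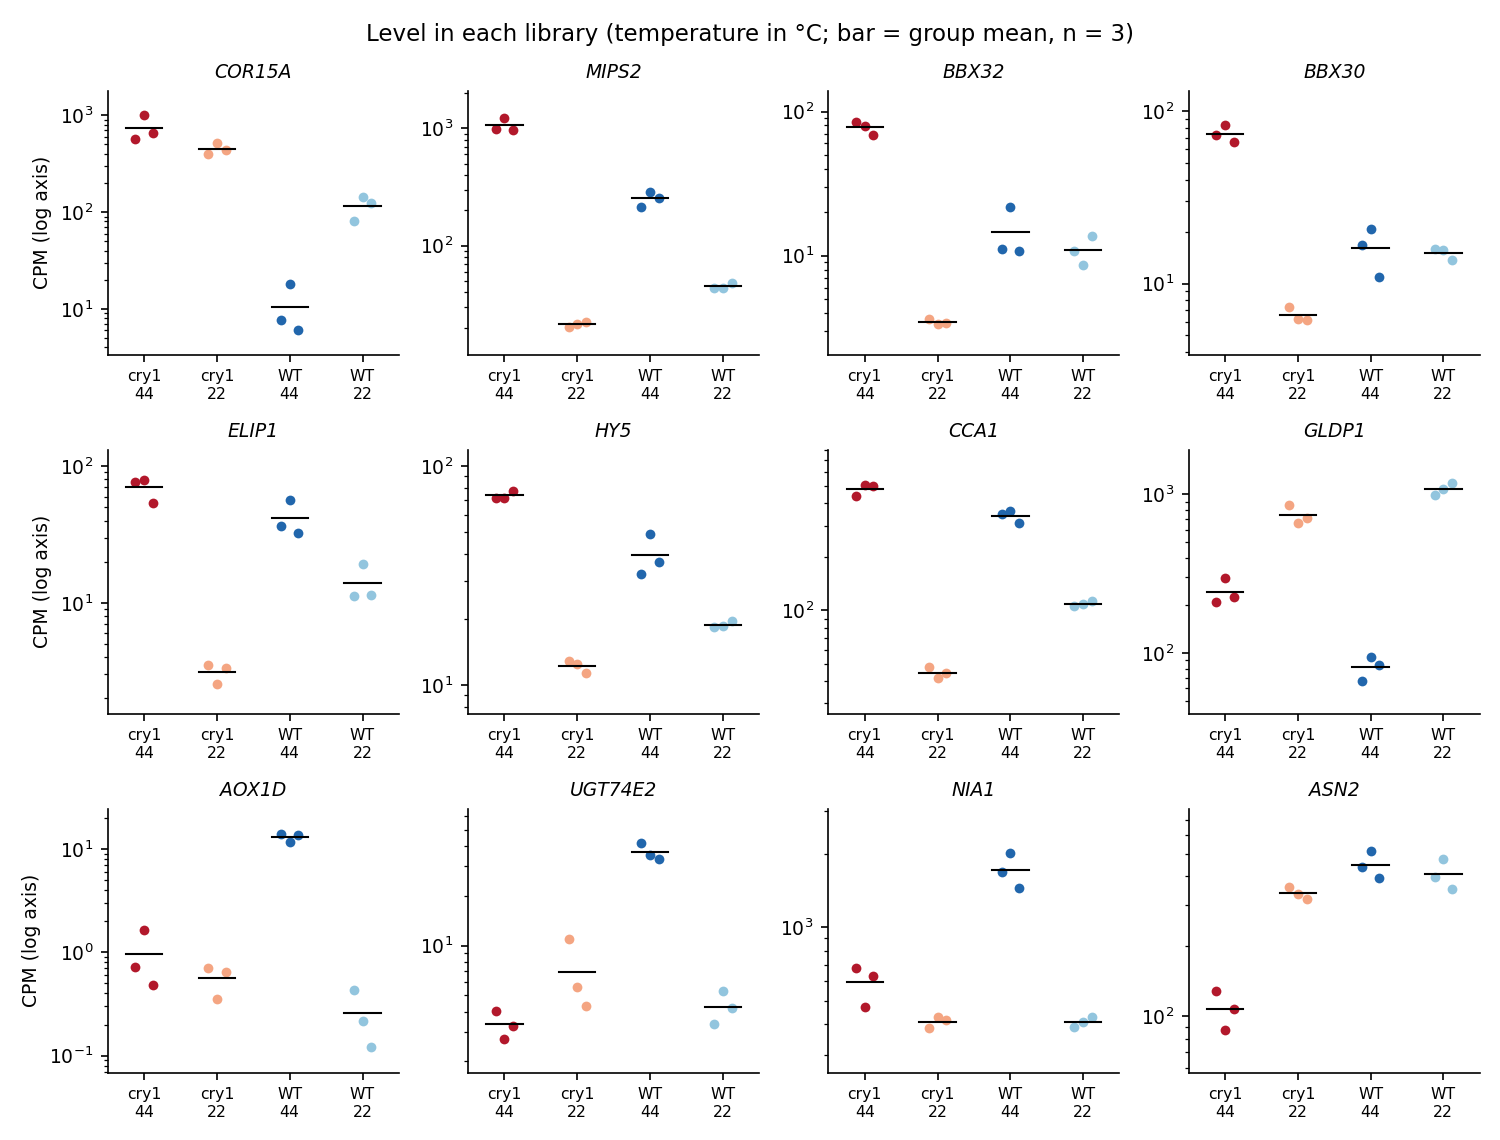
Level of 12 called genes in each of the 12 libraries, in TMM-scaled CPM on a log axis, with *cry1* at 44 and 22°C left of WT at 44 and 22°C. Points are libraries and bars are group means (n = 3). *COR15A* is lowest in WT at 44°C, *MIPS2*, *BBX32* and *BBX30* are highest in *cry1* at 44°C, and *AOX1D*, *UGT74E2* and *NIA1* are highest in WT at 44°C.

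The DNA just before the start of some of the genes described here is shown, since light and stress factors act through short motifs. These genes were picked by hand, and most genes described here are not shown. How often the shown windows hold a motif is therefore not a result. Each window holds the 300 bases before the annotated gene start, read 5′ to 3′ on the strand of the gene from RefSeq TAIR10.1. Capitals mark matches on either strand to 5 motifs: the G-box CACGTG, which HY5 and the PIF factors bind; the C-repeat CCGAC, which CBF factors bind; the evening element AAATATCT of clock-regulated genes; the heat shock element GAANNTTC; and the mitochondrial stress element that NAC factors bind, CTTG and CANG with 5 bases between them. The first 5 windows belong to genes with a higher response in *cry1* and the last 2 to genes with a lower one.
COR15A: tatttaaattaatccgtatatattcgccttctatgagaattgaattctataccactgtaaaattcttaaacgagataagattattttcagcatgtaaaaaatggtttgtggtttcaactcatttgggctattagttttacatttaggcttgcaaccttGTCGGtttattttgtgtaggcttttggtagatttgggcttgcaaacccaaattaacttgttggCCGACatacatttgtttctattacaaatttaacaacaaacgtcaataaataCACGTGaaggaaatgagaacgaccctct
BBX30: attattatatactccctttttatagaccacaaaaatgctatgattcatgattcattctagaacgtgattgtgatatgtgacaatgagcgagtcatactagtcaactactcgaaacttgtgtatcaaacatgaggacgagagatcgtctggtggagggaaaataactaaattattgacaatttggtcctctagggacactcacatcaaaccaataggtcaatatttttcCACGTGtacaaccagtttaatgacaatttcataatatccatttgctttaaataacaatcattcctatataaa
ELIP1: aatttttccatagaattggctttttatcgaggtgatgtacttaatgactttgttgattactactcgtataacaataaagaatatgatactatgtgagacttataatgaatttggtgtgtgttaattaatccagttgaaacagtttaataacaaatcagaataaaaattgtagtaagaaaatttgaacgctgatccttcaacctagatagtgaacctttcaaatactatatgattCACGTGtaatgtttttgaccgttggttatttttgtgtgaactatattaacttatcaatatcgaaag
MIPS2: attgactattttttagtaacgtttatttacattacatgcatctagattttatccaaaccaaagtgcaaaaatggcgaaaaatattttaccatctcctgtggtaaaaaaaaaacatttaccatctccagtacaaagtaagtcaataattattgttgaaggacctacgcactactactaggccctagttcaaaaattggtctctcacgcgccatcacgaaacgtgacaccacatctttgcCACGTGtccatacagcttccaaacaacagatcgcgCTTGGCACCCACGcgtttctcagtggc
CCA1: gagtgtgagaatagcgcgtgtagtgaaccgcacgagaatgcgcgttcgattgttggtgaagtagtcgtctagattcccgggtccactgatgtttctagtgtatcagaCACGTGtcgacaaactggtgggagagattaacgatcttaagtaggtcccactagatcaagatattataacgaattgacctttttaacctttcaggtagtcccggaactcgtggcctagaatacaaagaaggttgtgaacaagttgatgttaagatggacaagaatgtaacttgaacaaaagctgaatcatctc
AOX1D: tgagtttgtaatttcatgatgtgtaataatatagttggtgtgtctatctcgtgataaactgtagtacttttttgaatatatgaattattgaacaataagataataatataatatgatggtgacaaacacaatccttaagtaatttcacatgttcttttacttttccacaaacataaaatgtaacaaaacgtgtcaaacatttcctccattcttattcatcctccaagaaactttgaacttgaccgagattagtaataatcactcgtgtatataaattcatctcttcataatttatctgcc
AT2G21640: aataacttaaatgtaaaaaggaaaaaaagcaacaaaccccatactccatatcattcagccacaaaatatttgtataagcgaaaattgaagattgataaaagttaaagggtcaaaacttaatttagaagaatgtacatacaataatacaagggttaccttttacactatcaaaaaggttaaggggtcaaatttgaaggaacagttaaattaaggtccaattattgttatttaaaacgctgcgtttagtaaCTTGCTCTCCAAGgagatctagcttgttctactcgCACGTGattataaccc

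The windows lie at chr2:17712331-17712630 (minus strand, *COR15A*), chr4:8708541-8708840 (plus, *BBX30*), chr3:8085670-8085969 (minus, *ELIP1*), chr2:9454301-9454600 (minus, *MIPS2*), chr2:19245291-19245590 (plus, *CCA1*), chr1:11668691-11668990 (minus, *AOX1D*) and chr2:9254078-9254377 (plus, AT2G21640). Each of the first 5, which were picked by hand, holds a G-box. It begins 28 bases before the start of *COR15A*, 72 before *BBX30*, 66 before *ELIP1*, 62 before *MIPS2* and 193 before *CCA1*. The *COR15A* window holds C-repeats as well, which begin 79 and 142 bases before the start, and that of *MIPS2* a mitochondrial stress element 27 bases before it. No match was found in the *AOX1D* window, while that of AT2G21640 holds a G-box and a mitochondrial stress element, which begin 16 and 51 bases before its start, the second of them matching on both strands. Over whole windows free of other genes, a G-box was present before 93 of 499 genes with a higher response (18.6%), 18 of 258 with a lower response (6.98%) and 1072 of 12994 tested genes (8.25%). The C-repeat was present before 88 of 499 higher, 36 of 258 lower and 1785 of 12994 tested genes, and the evening element before 7.01%, 6.2% and 6.45%. The heat shock element was present before 11.6%, 12.4% and 10.2%, and the mitochondrial stress element before 2.81%, 5.04% and 1.48%. These are matches to letters, not sites, and no factor's binding was measured.

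Gene groups are described by the number of tested members whose difference passed at an adjusted p under 0.05, whatever its size. Over all tested genes 12.4% passed higher and 6.69% lower, with a median of 0.03, and each group below should be read against these values. Under all 3 scalings, 841 of the 2339 higher and 1202 of the 1267 lower genes passed in the same direction. Library totals move differences downward, so most genes that passed lower do so under all 3 scalings. Holding under all 3 therefore says little about the lower groups. Under library totals every median quoted below shifts by about the same amount as that of all genes, which turns the sign of small ones.

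Light signalling genes mostly had a higher response in *cry1*. Of 33 tested, 17 passed higher and 2 lower, with a median of 0.58, and 8 of the 17 passed under all 3 scalings. *HY5* (AT5G11260), the bZIP factor at the centre of photomorphogenesis, had 72, 71.4 and 77.6 CPM in *cry1* at 44°C and 12.9, 12.6 and 11.4 CPM at 22°C, against 32.4, 49 and 36.7 CPM in WT at 44°C and 18.5, 18.6 and 19.6 CPM at 22°C. *HY5* was thus lowest in *cry1* at 22°C and highest in *cry1* at 44°C, with no overlap between the groups (difference 1.52, SE 0.16, adjusted p = 4.36e-06). *HYH*, its close relative, differed by 1.1 (adjusted p = 0.00670), *HFR1*, a bHLH factor of far-red and blue-light signalling, by 1.15 (adjusted p = 1.06e-05) and *CRY3*, a cryptochrome of organelles, by 1.11 (adjusted p = 0.000230). *COP1*, the ubiquitin ligase that CRY1 restrains, had 38.0 ± 1.35 and 38.0 ± 2.88 CPM in *cry1* at 44 and 22°C, against 39.3 ± 2.85 and 45.6 ± 2.25 CPM in WT (SD, n = 3), and its difference of 0.21 did not pass and turned to -0.15 under library totals (adjusted p = 0.242 with TMM). The 2 members that passed lower encode factors that repress greening or light-grown development, *PIL5* (*PIF1*, -0.91, adjusted p = 0.00276) and *PIF3* (-0.53, adjusted p = 0.0133).

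The B-box factors, zinc-finger proteins that act with or against HY5, formed a separate list, with *BBX32* among the genes on both. The B-box list was chosen after values had been seen. Of 21 tested, 12 passed higher and 1 lower, with a median of 0.58, and 9 of the 12 did so under all 3 scalings. *BBX32* (AT3G21150), a repressor of light responses, had 85, 79.8 and 68.3 CPM in *cry1* at 44°C and 3.62, 3.37 and 3.38 CPM at 22°C, against 11.1, 21.8 and 10.8 CPM in WT at 44°C and 10.8, 8.53 and 13.7 CPM at 22°C. It rose by 4.49 in *cry1*, and in WT the value was 0.42 and did not pass (difference 4.07, SE 0.35, adjusted p = 1.36e-05). The heated and unheated WT libraries overlapped, while those of *cry1* lay below and above them. *BBX31* differed by 2.20 (SE 0.32, adjusted p = 0.000546), *BBX29* by 1.57, *BBX28* by 1.14 and *BBX27* by 1.09. *BBX18* rose in *cry1* and fell in WT (difference 2.03, adjusted p = 1.51e-05), and *BBX16* fell in both, less in *cry1* (2.95, adjusted p = 3.72e-06). *BBX14* went the other way. It had 13.7, 17.5 and 19.9 CPM in *cry1* at 44°C and 134, 140 and 120 CPM at 22°C, against 48.4, 51.1 and 53.6 CPM in WT at 44°C and 149, 134 and 143 CPM at 22°C, so heat lowered it in both and further in *cry1* (difference -1.47, SE 0.14, adjusted p = 1.72e-06).

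The circadian clock showed the same direction more evenly. Of 22 clock genes tested, 16 passed higher and none lower, with a median of 0.79, and 11 of the 16 passed under all 3 scalings. *CCA1*, a MYB-related factor of the morning loop, had 440, 507 and 503 CPM in *cry1* at 44°C and 48.1, 41.6 and 44.3 CPM at 22°C, against 347, 363 and 312 CPM in WT at 44°C and 107, 108 and 113 CPM at 22°C. Its level was lower in *cry1* at 22°C and higher at 44°C (difference 1.79, SE 0.11, adjusted p = 1.71e-08). *PRR9*, a repressor of *CCA1*, rose in both genotypes. It had 289 ± 23.2 and 5.75 ± 0.0817 CPM in *cry1* at 44 and 22°C, against 198 ± 20.6 and 11.8 ± 1.06 CPM in WT (difference 1.58, adjusted p = 5.66e-07), with counts that were not whole in 10 libraries. *LHY*, the partner of *CCA1*, fell in both and less in *cry1* (1.48, adjusted p = 6.98e-07). *RVE1* and *ELF4* differed by 1.36 and 1.31, and *PRR7* and *PRR5* by 0.85 and 0.73. *ELF3*, *PRR3* and *PCL1* (*LUX*) did not pass, with values between -0.25 and 0.01, and neither did *GI* at 0.37. The labels give continuous light before and during treatment and a single harvest, so phase and level cannot be told apart in these libraries.

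Photoprotection genes, whose products dissipate or shield from excess light, passed higher in 7 of 8 cases and lower in none, with a median of 0.93, and 5 of the 7 did so under all 3 scalings. *ELIP2*, an early light-induced protein, had the largest higher response of the genes named here. It had 7.09, 4.02 and 3.09 CPM in *cry1* at 44°C and 2.86, 2.32 and 2.06 CPM at 22°C, against 1.11, 2.07 and 1.03 CPM in WT at 44°C and 23.1, 31.8 and 16.4 CPM at 22°C. Most of this came from WT, where heat lowered it by 4.06, and it rose by 0.98 in *cry1* (difference 5.04, SE 0.51, adjusted p = 1.9e-05). Its homologue *ELIP1* rose in both genotypes instead, to 77.2, 79.7 and 53.5 CPM in *cry1* and 36.2, 56.5 and 32.7 CPM in WT at 44°C, against 3.5, 2.56 and 3.31 CPM in *cry1* and 11.2, 19.4 and 11.4 CPM in WT at 22°C. At 44°C the genotypes overlapped, and the difference of 2.91 (SE 0.42, adjusted p = 0.00105) came mainly from 22°C. *ABA1*, the zeaxanthin epoxidase of the xanthophyll cycle, held its level in *cry1*, at 221, 259 and 251 CPM at 44°C and 222, 215 and 218 CPM at 22°C, while WT had 159, 186 and 144 CPM at 44°C and 538, 533 and 545 CPM at 22°C (difference 1.88, SE 0.12, adjusted p = 1.71e-08). *NPQ4*, the PsbS protein of energy dissipation, fell in both genotypes (1.1, adjusted p = 0.000146).

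The photosynthetic apparatus followed with many small differences. Of 40 antenna and photosystem genes, 33 passed higher and none lower, with a median of 0.53, but 6 reached 2-fold and 13 passed under all 3 scalings. The median response to heat was 0.18 in *cry1* and -0.49 in WT. *PSBO2*, of the oxygen-evolving complex, had 739 ± 32.6 and 501 ± 19.0 CPM in *cry1* at 44 and 22°C, against 561 ± 79.4 and 936 ± 19.2 CPM in WT (difference 1.3, SE 0.12, adjusted p = 1.19e-06), so that it rose in the mutant and fell in WT. *PSB29* did likewise (1.33, adjusted p = 4.88e-08). *LHCB2.1* differed by 1.08 (adjusted p = 0.000123) and *LHCB2.3* by 1.60 (adjusted p = 0.000893), but these antenna genes are near-identical copies. The counts of *LHCB2.1* were not whole in all 12 libraries and those of *LHCB2.3* in 6, a sign that reads were shared between genes, and their separate values are uncertain.

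Related chloroplast lists ran in the same direction. In chlorophyll synthesis, 6 of 18 genes passed higher and none lower, led by *POR C*, a protochlorophyllide reductase (1.23, adjusted p = 0.00049), but the median was 0.04 and that under library totals -0.31. In photorespiration, a list chosen after values had been seen, 8 of 11 passed higher and none lower (median 0.53). Under all 3 scalings, 5 of the 8 did so. *GLDP1*, the glycine decarboxylase P-protein, had 210, 295 and 225 CPM in *cry1* at 44°C and 858, 656 and 714 CPM at 22°C, against 67.2, 94.3 and 84.2 CPM in WT at 44°C and 995, 1072 and 1183 CPM at 22°C. It fell in both genotypes, by 1.61 in *cry1* and 3.73 in WT (difference 2.12, SE 0.21, adjusted p = 1.5e-05). Of 6 plastid sigma factors, which direct the chloroplast RNA polymerase and were also chosen late, 4 passed higher, 1 of them under all 3 scalings. *SIGE* had 180, 190 and 165 CPM in *cry1* at 44°C and 31.8, 30.7 and 31.4 CPM at 22°C, against 79.1, 126 and 68.6 CPM in WT at 44°C and 130, 115 and 120 CPM at 22°C, rising in the mutant and falling in WT (difference 2.92, SE 0.24, adjusted p = 1.17e-05).

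Markers of leaf tissue moved with these groups. Of 7 leaf-expressed markers, 6 passed higher and none lower (median 0.50), and their summed level was 8380 to 8740 CPM in *cry1* at 44°C and 13000 to 13500 CPM at 22°C, against 7640 to 9520 CPM in WT at 44°C and 23000 to 23500 CPM at 22°C. The list holds *LHCB2.1* and *GLDP1*, which are described above. All 7 are genes of photosynthesis or photorespiration, so they cannot report leaf content apart from the groups above. The part of leaf content in the differences of chloroplast genes was not tested. None of 8 tested root-expressed markers passed, and their sum was 68.0 to 81.0 CPM in *cry1* at 44°C and 95.2 to 129 CPM at 22°C, against 69.3 to 86.4 and 118 to 138 CPM in WT. No leaf or root marker was at 0 in any library.

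Some flavonoid genes had a higher response in *cry1*. Of 16 tested, 7 passed higher and none lower, with a median of 0.69, and 3 passed under all 3 scalings. *TT4*, chalcone synthase, the first enzyme of the pathway, had 1.98, 0.882 and 1.06 CPM in *cry1* at 44°C and 32, 35 and 37.1 CPM at 22°C, against 0.86, 1.15 and 1.03 CPM in WT at 44°C and 157, 221 and 173 CPM at 22°C. At 44°C the genotypes overlapped near the lower end of detection, so the difference of 2.78 (SE 0.44, adjusted p = 0.000371) is that of the unheated seedlings. The same held for *CHIL* (1.63) and *F3H* (1.58), at 1.95 to 3.02 CPM on average in both genotypes at 44°C.

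Cold and dehydration genes had a median of 1.15. Of 15 tested, 10 passed higher and none lower, 8 of them by 2-fold or more, and 5 under all 3 scalings. Beside *COR15A*, its tandem neighbour *COR15B* had 476, 556 and 387 CPM in *cry1* at 44°C and 146, 155 and 140 CPM at 22°C, against 17.9, 29.7 and 14.8 CPM in WT at 44°C and 52.8, 84.6 and 64.3 CPM at 22°C (difference 3.37, SE 0.35, adjusted p = 0.000153). Counts of *COR15B* were not whole in 7 libraries, so a part of its reads was shared. *KIN1*, a small hydrophilic protein of the cold response, rose in both genotypes, to 842 ± 118 CPM in *cry1* and 93.8 ± 32.9 CPM in WT (difference 2.13, adjusted p = 0.00151). *LTI65* (*RD29B*) and *RD20*, both induced by abscisic acid, differed by 1.73 and 2.07. The CBF factors that drive this regulon did not pass, at -0.42 for *CBF1*, -0.33 for *DREB1A* (*CBF3*) and 0.49 for *CBF2*, with higher levels at 44 than at 22°C in both genotypes.

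Seed-expressed transcripts stood apart by genotype in the same libraries. The summed level of 6 seed markers was 86.9 to 182 CPM in *cry1* at 44°C and 44.6 to 244 CPM at 22°C, against 8.05 to 18.2 CPM in WT at 44°C and 15.1 to 24.1 CPM at 22°C. Most of this was *CRA1* and *CRU3*, seed storage globulins, and *SESA1* had at most 5 counts in any library. The 4 markers that were tested did not pass for the interaction (median 0.54). Genes of the cold and dehydration list are also expressed in maturing seeds, and the part of seed transcripts in their differences was not tested.

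Sugar and abscisic acid genes added to the higher side, on lists chosen after values had been seen. Of 11 genes of galactinol, raffinose and inositol metabolism, 6 passed higher, 5 under all 3 scalings, and none lower (median 1.12). *GolS2*, a galactinol synthase of drought and heat, reached 634, 705 and 534 CPM in *cry1* at 44°C and 25.8, 22.3 and 23.5 CPM at 22°C, against 159, 219 and 158 CPM in WT at 44°C and 16.9, 14.5 and 13.1 CPM at 22°C (difference 1.12, SE 0.20, adjusted p = 0.00114). *GolS1* was more abundant in the heat, at 5559 ± 313 CPM in *cry1* and 3851 ± 125 CPM in WT (1.25, adjusted p = 1.65e-06), and *GolS3* rose in *cry1* and fell in WT (2.86, adjusted p = 0.00059). Of 21 genes of abscisic acid synthesis and signalling, 11 passed higher, 6 under all 3 scalings, and none lower (median 0.61). They include the kinases *MAPKKK18* (1.80, adjusted p = 0.00207) and *MAPKKK17* (1.67, adjusted p = 0.0024), while *NCED3*, the rate-limiting step of stress-induced abscisic acid synthesis, did not pass at -0.05. Of 11 starch breakdown genes, 5 passed higher, 3 under all 3 scalings, and none lower (median 0.49). AT3G23920, annotated as beta-amylase 1, had 1939.8 ± 118 and 62.1 ± 4.69 CPM in *cry1* at 44 and 22°C, against 1018 ± 138 and 100 ± 9.92 CPM in WT (difference 1.62, SE 0.14, adjusted p = 5.66e-07).

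Phosphate starvation genes, also listed late, had the highest median of all lists, at 1.28. Of 14 tested, 9 passed higher and none lower, and 7 under all 3 scalings. *SPX1*, a phosphate sensor, had 12, 10.6 and 8.02 CPM in *cry1* at 44°C and 16.5, 12.6 and 16.1 CPM at 22°C, against 7.74, 11 and 10.4 CPM in WT at 44°C and 62.2, 76.6 and 46 CPM at 22°C. WT at 22°C stood above the other 3 groups, whose ranges met or lay close together (difference 2.1, SE 0.31, adjusted p = 0.000446). *G3Pp1*, a glycerol-3-phosphate transporter, differed by 1.85, and *SQD1* and *MGD2*, which make non-phosphorus membrane lipids, by 1.09 and 1.47. For *SPX1*, *SQD1*, *MGD2* and *PAP17* the genotypes passed at 22°C and not at 44°C.

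**Figure D5:**
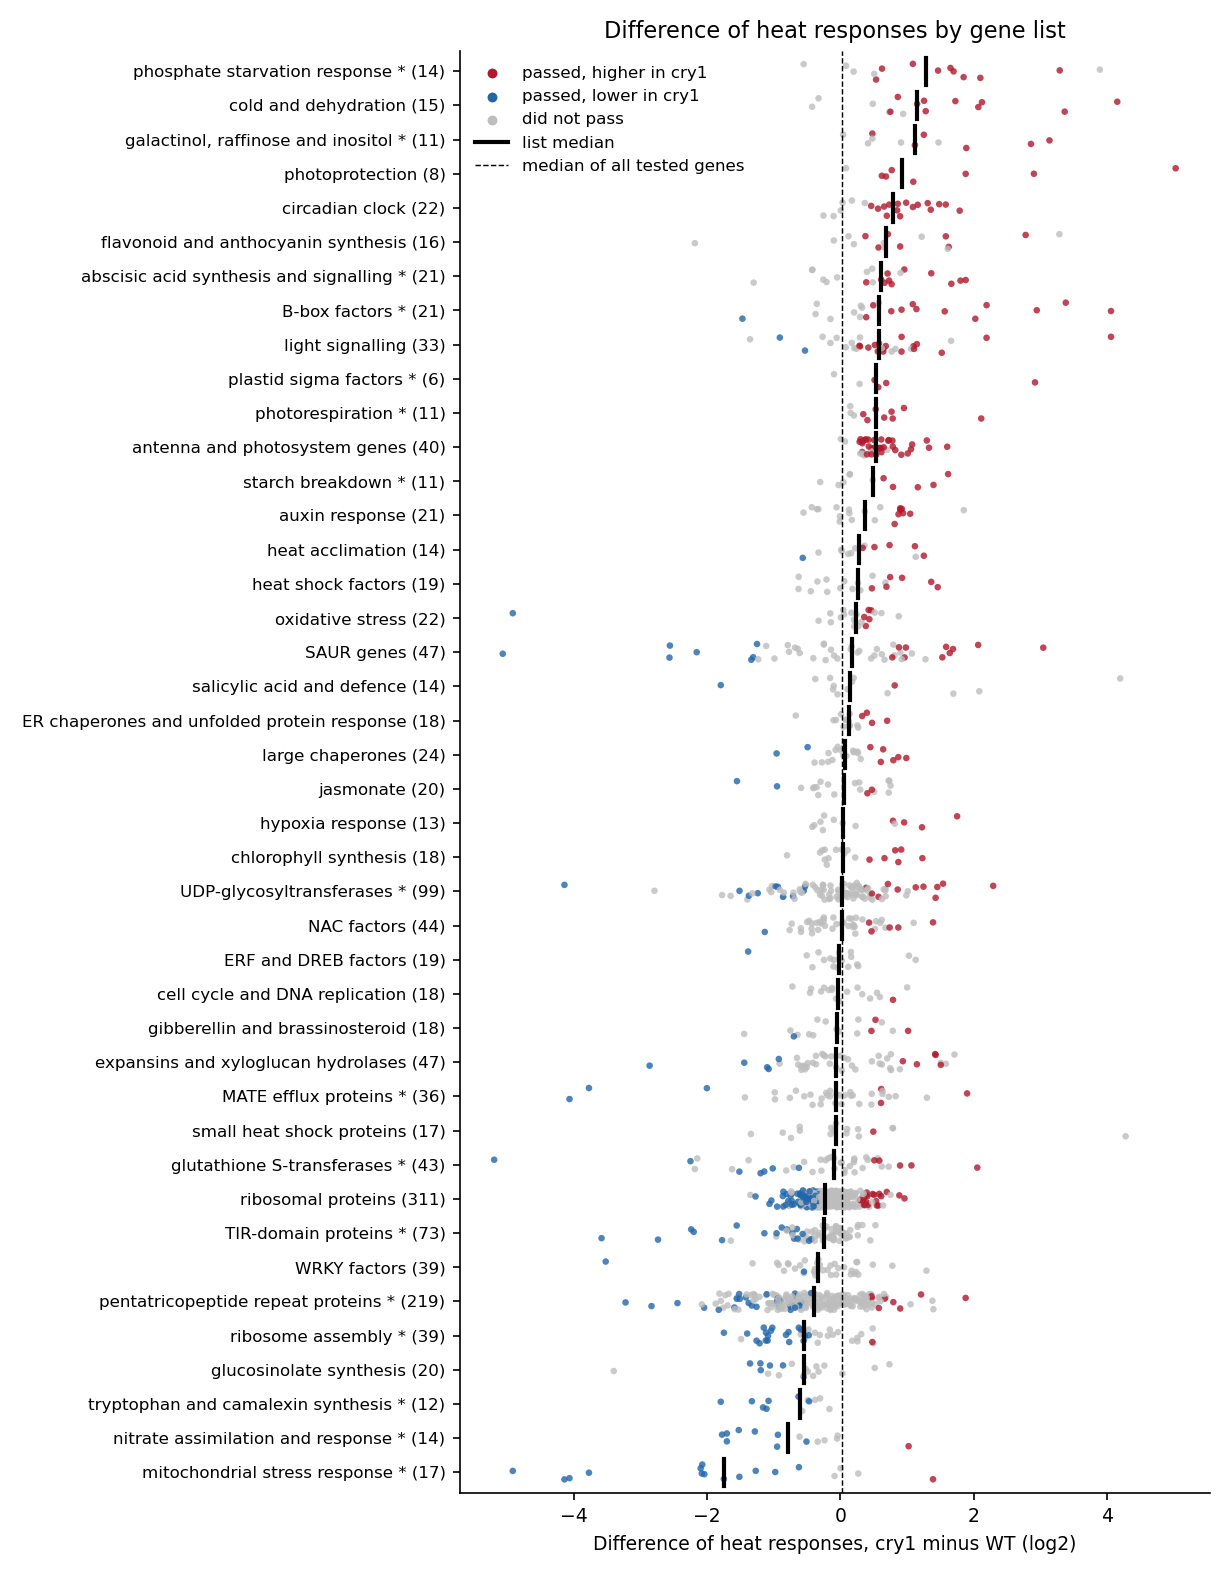
Difference of heat responses, *cry1* minus WT, on the log2 scale (x axis) for each tested gene of 42 lists, with the number tested in brackets. Red and blue points passed higher and lower in *cry1*, grey points did not pass, black bars are list medians, the dashed line is the median of all tested genes, and an asterisk marks lists chosen after values were seen. Phosphate starvation, cold and dehydration, and galactinol genes are at the top and mitochondrial stress, nitrate and tryptophan genes at the bottom.

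Heat shock genes were divided, with few small heat shock proteins and more of the heat shock factors passing. Of 17 small heat shock proteins, 1 passed higher and none lower, against median responses to heat of 12.84 in *cry1* and 12.73 in WT on the log2 scale. The 1 that passed, AT2G19310 (0.49, adjusted p = 0.0162), did not under library totals (0.14, adjusted p = 0.436). Differences in this list ran from -1.34 to 4.28, and even 4.28 did not pass. Few passes here thus do not show that the responses were equal. *HSP101*, the chaperone that resolves heat-aggregated proteins, had 26129, 29573 and 27762 CPM in *cry1* at 44°C and 19.5, 13.8 and 12.7 CPM at 22°C, against 19670.0, 21574 and 21340.0 CPM in WT at 44°C and 9.41, 14.3 and 8.89 CPM at 22°C. Its level in the heat was higher in every *cry1* library, but the response did not pass the test (-0.07, SE 0.23, adjusted p = 0.871), and the sign turned without *cry1* 22°C replicate 1 (0.11) or WT 22°C replicate 3 (0.03). The heat shock factors *HSFA2* (-0.44, SE 0.56, adjusted p = 0.644), *HSFA7A* (0.26, SE 0.13, adjusted p = 0.167) and *HSFA7B* (0.48, SE 0.70, adjusted p = 0.741) did not pass either, and *HSFA7A* turned to -0.09 under library totals. With 0.0537 to 0.211 CPM of *HSFA7B* at 22°C in both genotypes, its base level rests on few counts, and at 44°C it had 426, 499 and 456 CPM in *cry1*, against 271, 279 and 258 CPM in WT.

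Of 19 heat shock factors, 6 passed higher and none lower, 3 under all 3 scalings, with a median of 0.26 that became -0.09 under library totals. *HSFA1E* (AT3G02990), one of the class A1 factors that start the heat response, had the highest value. It had 97, 107 and 89.9 CPM in *cry1* at 44°C and 4.56, 4.77 and 4.73 CPM at 22°C, against 36.5, 32.3 and 33.9 CPM in WT at 44°C and 4.49, 4.72 and 4.3 CPM at 22°C. The genotypes overlapped at 22°C and were apart at 44°C (difference 1.46, SE 0.14, adjusted p = 2.05e-06). *HSFA1D*, of the same class, differed by 0.93 (adjusted p = 0.00528), though not under all 3 scalings. Among 24 large chaperones, 6 passed higher and 2 lower. The chloroplast chaperones *CLPB3* (0.99, adjusted p = 5.32e-06), *cpHsc70-1* (0.87, adjusted p = 1.3e-05) and *CLPC1* (0.80, adjusted p = 7.19e-05) passed higher. The mitochondrial *mtHsc70-1* passed lower, at 88.6, 66.6 and 68.3 CPM in *cry1* at 44°C and 122, 116 and 124 CPM at 22°C, against 139, 136 and 131 CPM in WT at 44°C and 116, 120 and 103 CPM at 22°C (difference -0.96, SE 0.13, adjusted p = 5.58e-05).

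On the lower side the mitochondrial stress response had the lowest median of the lists. This set of genes, switched on by NAC factors when mitochondria are impaired, was listed after values had been seen. Of 17 tested, 13 passed lower and 1 higher, 11 of the 13 by 2-fold or more, with a median of -1.75, and all 13 under the 3 scalings. The median response to heat was 1.00 in *cry1* and 3.09 in WT. *UGT74E2*, a glucosyltransferase that acts on an auxin precursor, had 4.04, 2.74 and 3.28 CPM in *cry1* at 44°C and 11, 5.61 and 4.33 CPM at 22°C, against 41.8, 35.2 and 33.2 CPM in WT at 44°C and 3.37, 5.31 and 4.17 CPM at 22°C. As with *AOX1D*, the heated WT libraries stood above all others (difference -4.14, SE 0.47, adjusted p = 0.000117). AT2G21640, annotated as a marker of oxidative stress, rose in both genotypes, to 11.5, 8.52 and 7.63 CPM in *cry1* and 26.9, 31.4 and 21.1 CPM in WT, against 2.4, 2.32 and 2.2 CPM in *cry1* and 2.06, 1.72 and 0.847 CPM in WT at 22°C (difference -2.10, SE 0.33, adjusted p = 0.000233).

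*SOT12*, a sulfotransferase, had 17.2 ± 4.03 and 8.36 ± 1.72 CPM in *cry1* at 44 and 22°C, against 73.5 ± 5.38 and 8.45 ± 0.659 CPM in WT (difference -2.08, adjusted p = 1.03e-05). *DTX1* and its neighbour AT2G04050, MATE efflux proteins, differed by -3.78 and -4.07. Counts of *DTX1* were not whole in 10 libraries, so reads were shared among these copies. Not all of the list moved. *AOX1A*, the major alternative oxidase gene of these seedlings at 32.0 to 105 CPM on group average, did not pass (0.27), nor did *NDB2* (0.00). *NAC13*, one of the NAC factors that switch on the set, passed in the other direction. It had 107, 107 and 99.4 CPM in *cry1* at 44°C and 8.82, 10.1 and 8.18 CPM at 22°C, against 50.7, 70.9 and 53.8 CPM in WT at 44°C and 13.8, 13.7 and 12.3 CPM at 22°C (difference 1.39, SE 0.16, adjusted p = 1.04e-05).

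Nitrate assimilation genes mostly had a lower response in *cry1*. Of 14 on this list, chosen late, 8 passed lower and 1 higher, with a median of -0.78, and all 8 did so under the 3 scalings. *NIA1*, nitrate reductase, had 683, 473 and 631 CPM in *cry1* at 44°C and 385, 427 and 416 CPM at 22°C, against 1690.4, 2016 and 1451 CPM in WT at 44°C and 391, 409 and 430 CPM at 22°C. The genotypes were equal at 22°C, where the difference was -0.00, and were apart by 1.53 on the log2 scale at 44°C, lower in *cry1* (difference of responses -1.53, SE 0.18, adjusted p = 3.12e-05). *ASN2*, asparagine synthetase, had 129, 87.6 and 108 CPM in *cry1* at 44°C and 360, 337 and 320 CPM at 22°C, against 439, 511 and 392 CPM in WT at 44°C and 398, 474 and 354 CPM at 22°C. It fell in *cry1*, and in WT its response of 0.13 did not pass (difference -1.78, SE 0.20, adjusted p = 3.24e-05). *UPM1*, which makes the sirohaem cofactor of nitrite reductase, fell in *cry1* and rose in WT (-1.70, adjusted p = 2.7e-07). *BT2*, a nitrate-induced BTB protein, fell in both and more in *cry1* (-1.70), while its relative *BT1* was the member that passed higher (1.02, adjusted p = 0.0011).

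Some genes of tryptophan, camalexin and glucosinolate synthesis had a lower response in *cry1*. Of 12 tryptophan and camalexin genes, listed late, 7 passed lower and none higher (median -0.60). *ASA1*, the anthranilate synthase that commits to tryptophan, had 20.2, 17.7 and 15.1 CPM in *cry1* at 44°C and 26.3, 21.9 and 26.3 CPM at 22°C, against 33.9, 44.2 and 37.5 CPM in WT at 44°C and 24.4, 28 and 22.7 CPM at 22°C (difference -1.11, SE 0.18, adjusted p = 0.000227). *PAD3*, the last enzyme of camalexin synthesis, differed by -1.80 (adjusted p = 0.02), a call lost without *cry1* 44°C replicate 1 or 3 or WT 44°C replicate 3, at -1.66 to -1.62. Of 20 glucosinolate genes, 6 passed lower and none higher (median -0.55), among them the sulfotransferases *SOT16* (-1.20, adjusted p = 4.05e-05) and *SOT17* (-1.20, adjusted p = 0.0316), with *SOT17* losing its call without *cry1* 44°C replicate 1 or 2 or WT 44°C replicate 1 or 3, at -1.26 to -0.89. The median response of the list to heat was -3.24 in *cry1* and -2.83 in WT. Of 73 genes for TIR-domain proteins, many of them immune receptors and a list chosen late, 17 passed lower and none higher (median -0.25). AT1G72900 had 21.6, 11 and 16.5 CPM in *cry1* at 44°C and 20.4, 9.86 and 11 CPM at 22°C, against 55.4, 52.1 and 68 CPM in WT at 44°C and 9.54, 13.7 and 7.68 CPM at 22°C (difference -2.24, SE 0.49, adjusted p = 0.0118).

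Single regulators of wounding and defence followed, though their families did not. *WRKY40*, a repressor of immune responses, fell by 1.16 in *cry1* and rose by 2.36 in WT (difference -3.52, SE 0.61, adjusted p = 0.00066). It was low throughout, at 0.988, 0.49 and 1.06 CPM in *cry1* at 44°C, against 7.98, 5.98 and 8.11 CPM in WT. Of 39 WRKY genes, 2 passed lower and none higher. Among jasmonate genes 2 of 20 passed in each direction, with *LOX4* (-1.55, adjusted p = 0.015) and *JAZ6* (-0.95, adjusted p = 0.000814) on the lower side. Of 14 salicylic acid and defence genes, 1 passed in each direction, *PAD4* higher and the camalexin gene *PAD3* lower. Each lost its call when certain single libraries were left out.

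Genes of ribosome production had a lower response in *cry1*. Of 39 genes of ribosome assembly, a list chosen late, 20 passed lower and 1 higher, with a median of -0.55, and 19 of the 20 under all 3 scalings. *NUC-L1*, nucleolin, had 218, 187 and 212 CPM in *cry1* at 44°C and 216, 213 and 232 CPM at 22°C, against 346, 330 and 308 CPM in WT at 44°C and 169, 183 and 167 CPM at 22°C. It rose in WT by 0.92 and did not pass in *cry1*, at -0.10 (difference -1.02, SE 0.11, adjusted p = 3.72e-06). AT5G27120, a NOP56-like protein of pre-rRNA processing, had 17.8 ± 0.369 and 59.7 ± 3.05 CPM in *cry1* at 44 and 22°C, against 34.3 ± 4.12 and 34.4 ± 4.55 CPM in WT (difference -1.75, adjusted p = 5.14e-07). *NOP56* itself differed by -1.15 and *FIB2*, fibrillarin, by -1.21. Of 311 ribosomal protein genes, 75 passed lower and 21 higher, with a median of -0.23, and 3 of them reached 2-fold. Of 219 pentatricopeptide repeat genes, whose products process organelle RNA, 27 passed lower and 8 higher (median -0.39). AT1G33350 of this family went the other way, at 110, 91 and 78.2 CPM in *cry1* at 44°C and 1.4, 0.947 and 1.25 CPM at 22°C, against 15.4, 15.8 and 22 CPM in WT at 44°C and 0.81, 0.644 and 1.09 CPM at 22°C (difference 1.88, SE 0.39, adjusted p = 0.00262).

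Growth hormone genes showed a mixed picture. Of 21 auxin response genes, 7 passed higher and none lower, with a median of 0.37 that became 0.01 under library totals. Those 7 were all Aux/IAA repressors, led by *AXR3* (*IAA17*, 1.05, adjusted p = 2.48e-05), *IAA2* (0.94, adjusted p = 5.25e-05) and *IAA7* (0.92, adjusted p = 0.000115). SAUR genes went both ways, with 10 higher and 7 lower of 47, as did expansins and xyloglucan hydrolases, with 5 and 5 of 47. *XTH6* was higher (1.51, adjusted p = 2.9e-05) and *EXPA10* lower (-1.44, adjusted p = 0.00247). For gibberellin and brassinosteroid genes 3 of 18 passed higher and 1 lower. Cell cycle and DNA replication genes had 1 of 18 pass higher and none lower. Some of the remaining lists passed higher more often than the 12.4% of all tested genes, though few of those members held under all 3 scalings. Of 18 genes of the endoplasmic reticulum stress response 4 passed higher (22.2%, none under all 3 scalings). Of 14 heat acclimation genes 5 passed higher (35.7%, 2 under all 3) and 1 lower. Of 22 oxidative stress genes 5 passed higher (22.7%, none under all 3) and 1 lower (*AOX1D*). Hypoxia genes had 4 of 13 pass higher (30.8%, 1 under all 3). Of 44 NAC factors 5 passed higher and 1 lower, and of 19 ERF and DREB factors 1 lower. Among detoxification families listed late, 5 of 43 glutathione S-transferases passed higher and 7 lower, 11 of 99 UDP-glycosyltransferases higher and 10 lower, and 3 of 36 MATE proteins in each direction.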

How the data were processed

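RNA-seq was read in 12 libraries of whole *Arabidopsis* seedlings. By the study's methods and labels, RNA was depleted of rRNA, and the labels add a kit for stranded mRNA libraries. The methods name trimming with Trimmomatic and quantification with RSEM on TAIR10, and the submitters' notes TopHat2 2.0.11. The sources used here do not say whether strand was used in counting, and antisense partners are therefore uncertain. The values used are the expected counts that the authors deposited, of which 8.50 to 11.6% of the values above 0 in a library were not whole. They were rounded here.

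Genes averaging at least 1 CPM over the 12 libraries went into 1 model over the 4 groups (edgeR 4.0.16 in R 4.3.3, quasi-likelihood test with the robust option, TMM scaling, Benjamini-Hochberg over 18932 genes). CPM are rounded counts over TMM-scaled library sizes, and errors are SD over 3 libraries. Simulated data with 50 genes per size returned 49 of 4-fold and 36 of 2-fold higher responses by adjusted p and direction alone. False calls, which also had to reach 2-fold, were 5 among 18861 genes. The changed genes were not drawn from low counts and all genes had the same simulated spread, so recovery in the data may be lower.

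Groups came from the titles. Replicates correlated at 0.983 to 0.991 in log2 CPM, but no 2 agreed within sampling noise (chi-square per gene 4.46 to 14.8). The highest value was that of *cry1* 22°C replicates 1 and 3. Genes named are, per direction, the 20 largest called differences of at least 5 CPM in the highest group and above 3 counts per library in every group that held under 3 scalings, up to 3 per direction and list, and 8 genes of the study (*CRY1*, *HY5*, *COP1*, *HSFA2*, *HSFA7A*, *HSFA7B*, *HSFA1E*, *HSP101*); others were picked after their values were seen. The genes and lists were chosen with earlier results of these data known, and 16 of 45 lists after values of this contrast were seen. Alternatives were library totals, median ratio, DESeq2 1.42.0, limma 3.58.1 with voom, 3 other filters, a replicate block and leaving out each library. Sequences came from RefSeq TAIR10.1, and 12994 of 18932 genes had 300 bases free of other genes.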

Additional observations from a re-analysis of the deposited data

Results flagged for a closer look

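The test of the difference between the genotypes' responses to 44°C (edgeR, 3 libraries per group) called 620 genes with a higher and 402 with a lower response in *cry1*, 3.27% and 2.12% of the 18932 genes tested. Within these, the direction of the response itself differed, as read with TMM only and relative to the bulk of genes. It was upward in *cry1* and downward in WT for 73 genes, which include *ELIP2*, *COR15B*, *SIGE*, *GolS3*, *BBX18*, *HFR1* and *PSBO2*. It was downward in *cry1* and upward in WT for 47 genes, which include *UGT74E2*, *WRKY40*, *UPM1*, *ASA1* and *LOX4*, and also *CRY1*, whose response in *cry1* rests on 0 to 5 counts per library.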

How the results depend on the processing

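The scaling had the largest effect. With library totals, 284 genes were higher and 1314 lower, and of the members of the first lists 82 passed higher and 326 lower, against 620, 402, 187 and 107 with TMM. With a mean of at least 10 CPM, 384 were higher and 162 lower, and 136 named genes were past the threshold, against 209. That filter left 144 of the 214 named genes in the fit, of which 3 no longer passed. *COP1* turned to -0.15 and *HSFA7A* to -0.09 with library totals, *HSFA7B* to -0.23 without WT 22°C replicate 3, and *HSP101* to 0.11 without *cry1* 22°C replicate 1 and 0.03 without WT 22°C replicate 3 (over single libraries left out, -0.23 to 1.01 for *HSFA7B* and -0.36 to 0.11 for *HSP101*). None of these passed the test under TMM. Median ratio gave 635 and 387, DESeq2 687 and 417, limma-voom 543 and 335, no filter 637 and 400, and a filter on FPKM 646 and 398. Leaving out 1 library gave 524 to 687 higher and 330 to 435 lower, 151 to 184 and 82 to 134 list members, and 188 to 200 named genes. Without any 1 library, 497 of the 620 and 258 of the 402 kept an adjusted p under 0.05. Replicate numbers did not pair the libraries (correlations of same-numbered libraries -0.136 to 0.270, of different-numbered ones -0.364 to 0.232). The largest of both kinds were between *cry1* and WT libraries at 22°C, and a block on replicate number does not take up those between different numbers. A replicate block gave 618 higher and 396 lower, 185 and 106 list members and 207 named genes. In the simulated data, 36 of 50 responses changed 2-fold upward and 38 of 50 changed 2-fold downward were recovered by adjusted p and direction alone. Others of this size may therefore be missed at this depth. The causes of these changes were not tested.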
